A study of Homo sapiens with 12 samples.

Results

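The genes of cholesterol and fatty acid synthesis were followed through EGFR inhibition in non-small cell lung cancer (NSCLC) cells. They are 33 genes chosen by symbol, each matched to 1 row of a count table of 60591 genes: 18 enzymes of sterol synthesis, 8 enzymes of fatty acid synthesis and its acetyl-CoA supply, and 7 regulators and carriers. All 33 passed the expression filter, as did 19108 genes in all. RNA-seq was collected from PC9 and H1650, established human NSCLC lines that carry activating EGFR mutations and whose genotype is otherwise given as wild-type. Each line was sampled as T0 (0.1% DMSO, 0 h), after 36 h with 10 μM erlotinib, a reversible EGFR kinase inhibitor, and after 36 h with 0.1 μM osimertinib, a covalent one, with 2 libraries in each of the 6 groups. The cells were grown in medium with serum. No library of untreated cells at 36 h was analysed here, so drug and time in culture cannot be told apart in the comparisons with T0, and the doses of the drugs differ. The study describes the 2 RNA-seq replicates of each comparison as biological, and neither it nor the labels say more of how they were kept apart, so the p-values measure the spread between these libraries.

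The 12 libraries held 17961765 to 26346187 counts, and mitochondrial genes took 4.36% to 7.20% of them. Levels are given as normalized CPM, the usual depth-scaled counts, here divided by library sizes with TMM factors. The limit that a count of 0 allows, 3 reads, corresponded to 0.116 to 0.168 CPM. The epithelial markers EPCAM, KRT8, KRT18, KRT7 and CDH1 were at 185 CPM or more in every library. Of the lung markers, NKX2-1, SFTPB and SFTPC were at 0 in 9, 8 and 10 of the 12 libraries, and NAPSA did not exceed 1.85 CPM. Of the fibroblast markers, COL1A1 lay between 9.96 and 44.8 CPM. COL3A1 was at 0 in all PC9 libraries and between 6.75 and 19.9 CPM in those of H1650. DCN was at 0 in 10 of the 12 libraries, and PDGFRB did not exceed 1.02 CPM. The libraries are bulk RNA, so a change in a share of the cells and a change in every cell cannot be told apart.

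As background, cholesterol is built from acetyl-CoA through mevalonate to farnesyl diphosphate, which is joined to squalene, closed to lanosterol and trimmed to cholesterol. Fatty acids are built from the same acetyl-CoA by carboxylation, chain synthesis, elongation and desaturation. Both pathways are under the SREBP transcription factors: SREBF2 encodes the form known mainly for sterol genes and SREBF1 the forms known mainly for fatty acid genes. SCAP carries the SREBPs from the endoplasmic reticulum to the Golgi, where they are cut and released, and INSIG1 and INSIG2 hold SCAP back when sterols are plentiful. EGFR signalling through PI3K and AKT is known to promote SREBP processing.

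SREBP binds sterol regulatory elements, and NF-Y, which binds CCAAT boxes, works beside it at many of these promoters. RefSeq promoters (build GRCh38.p14, 250 bases before to 50 after the start) were found for 29 of the 33 genes, 40 promoters in all. ACAT2, FASN, FDFT1 and SQLE were not among them. The search covered 5 motifs on both strands. CCAAT stood in 26 of the 40 promoters (65%), against 34.61% of all 35116 promoters of the same length. CACNCCAC, the core of a sterol regulatory element, stood in 7 (17.5%, against 5.866%), and the longer TCACNCCAC, which contains it, in 1, that of SREBF2 (2.5%, against 1.128%). CACGTG, an E-box, stood in 5 (12.5%, against 7.256%), and GGGCGG, a GC box, in 36 (90%, against 44.95%). Alternative starts of a gene can share bases, so promoters of 1 gene are not independent.

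The promoters of 6 genes are printed because their genes carry the patterns described here: SREBF2 and INSIG1 for the regulators, MSMO1 and TM7SF2 for the sterol enzymes with a rise in every comparison with T0, SCD for the highest level in H1650, and ELOVL6 for opposite changes in the 2 lines. They lie at chr22:41832855-41833154 (plus strand), chr7:155297628-155297927 (plus strand), chr4:165327419-165327718 (plus strand), chr11:65111622-65111921 (plus strand), chr10:100346983-100347282 (plus strand) and chr4:110198566-110198865 (minus strand). Each is written 5′ to 3′ on the strand of its gene, and capitals mark CACNCCAC, CACGTG and CCAAT on either strand.
SREBF2: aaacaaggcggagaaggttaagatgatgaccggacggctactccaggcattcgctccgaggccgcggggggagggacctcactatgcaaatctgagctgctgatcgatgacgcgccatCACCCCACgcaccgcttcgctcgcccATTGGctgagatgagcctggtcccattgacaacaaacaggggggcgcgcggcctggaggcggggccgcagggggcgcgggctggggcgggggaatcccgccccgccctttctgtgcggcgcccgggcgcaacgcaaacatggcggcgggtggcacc
INSIG1: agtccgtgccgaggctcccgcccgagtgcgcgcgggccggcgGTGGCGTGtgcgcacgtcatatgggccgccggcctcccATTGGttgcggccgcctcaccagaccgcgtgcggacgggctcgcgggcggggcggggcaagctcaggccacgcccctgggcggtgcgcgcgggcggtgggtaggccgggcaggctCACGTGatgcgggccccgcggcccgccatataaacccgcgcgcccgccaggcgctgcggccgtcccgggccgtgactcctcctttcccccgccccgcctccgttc
MSMO1: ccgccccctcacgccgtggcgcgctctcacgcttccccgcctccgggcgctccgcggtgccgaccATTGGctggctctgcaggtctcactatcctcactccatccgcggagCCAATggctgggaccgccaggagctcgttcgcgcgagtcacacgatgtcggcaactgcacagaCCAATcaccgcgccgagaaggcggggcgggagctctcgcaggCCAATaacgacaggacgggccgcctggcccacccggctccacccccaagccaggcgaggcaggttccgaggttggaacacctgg
TM7SF2: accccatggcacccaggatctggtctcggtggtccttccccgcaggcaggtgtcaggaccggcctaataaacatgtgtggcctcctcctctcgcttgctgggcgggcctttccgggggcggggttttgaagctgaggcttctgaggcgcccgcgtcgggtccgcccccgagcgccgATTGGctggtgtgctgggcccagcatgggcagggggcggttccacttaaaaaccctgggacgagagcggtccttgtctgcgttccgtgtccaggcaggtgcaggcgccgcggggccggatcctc
SCD: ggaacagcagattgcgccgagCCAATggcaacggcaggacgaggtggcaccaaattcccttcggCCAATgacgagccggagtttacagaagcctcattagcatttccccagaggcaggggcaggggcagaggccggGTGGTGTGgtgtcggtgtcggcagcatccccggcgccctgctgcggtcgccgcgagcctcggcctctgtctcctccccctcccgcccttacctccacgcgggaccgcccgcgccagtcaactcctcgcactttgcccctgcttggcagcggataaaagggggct
ELOVL6: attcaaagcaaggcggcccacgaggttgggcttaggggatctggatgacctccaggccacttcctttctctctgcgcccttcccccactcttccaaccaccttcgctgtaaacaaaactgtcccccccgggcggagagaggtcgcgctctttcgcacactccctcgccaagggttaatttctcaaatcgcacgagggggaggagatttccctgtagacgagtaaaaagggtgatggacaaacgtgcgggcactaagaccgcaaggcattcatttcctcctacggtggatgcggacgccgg
MSMO1 held CCAAT 4 times and SCD 2 times, and the ELOVL6 window held none of the 3 capitalised motifs. A match describes the letters in this window and is not evidence of binding.

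In PC9, more sterol enzymes were called higher than lower, 9 and 2 with erlotinib and 8 and 5 with osimertinib. Fatty acid enzymes were split between higher and lower. All tested genes were also called higher more often than lower in PC9. With osimertinib the sterol median log2 fold change, 0.08, was near the 0.06 of all tested genes. In H1650, a share of the sterol enzymes near that of all tested genes was called with erlotinib, while with osimertinib most of the 33 genes were higher. A gene was called at a Benjamini-Hochberg adjusted p under 0.05 over all tested genes, in edgeR's quasi-likelihood test. After erlotinib in PC9, 25 of the 33 genes were called, 18 higher and 7 lower, where 61.8% of all tested genes were called (32.7% higher and 29.1% lower). After osimertinib in PC9, 26 were called, 17 higher and 9 lower, against a background of 61.4% (32.7% higher and 28.7% lower). After erlotinib in H1650, 15 were called, 9 higher and 6 lower, against 36.5% (18.0% higher and 18.5% lower). After osimertinib in H1650, 26 were called, 25 higher and 1 lower, against 35.7% (17.8% higher and 17.9% lower). The median log2 fold change of the 33 genes was 0.28, 0.34, 0.04 and 0.48 in that order, beside 0.07, 0.06, 0.01 and 0.00 over all tested genes.

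**Figure D1:**
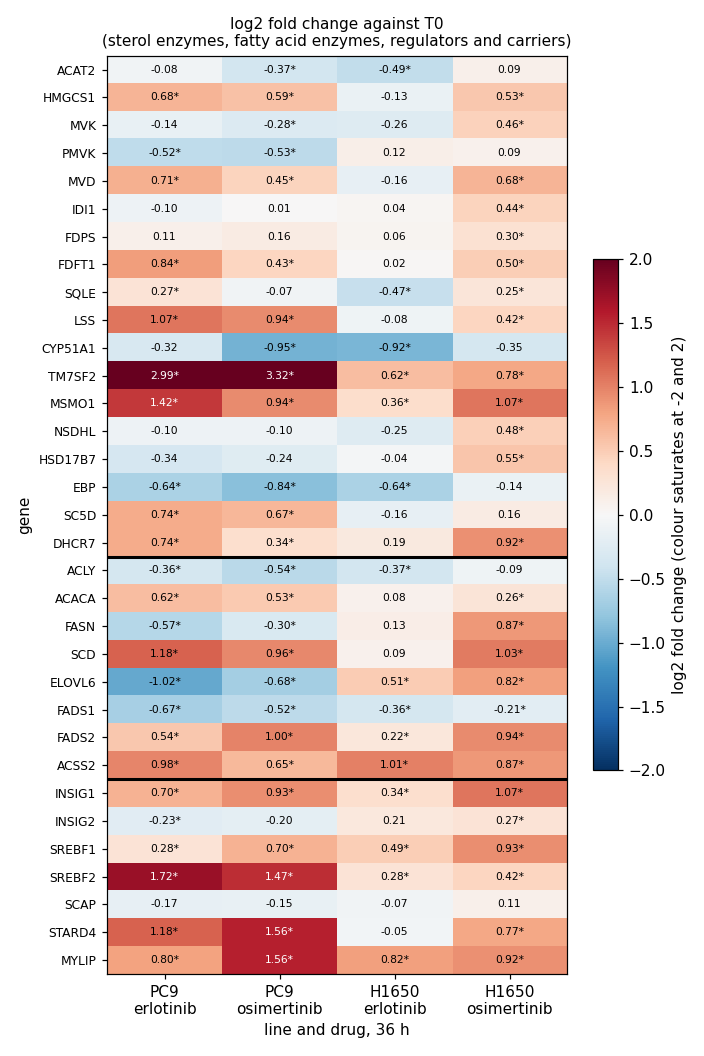
Heat map of log2 fold changes for the 33 genes (rows, in 3 blocks by role) in the comparisons named along the horizontal axis, with colour from lower to higher and saturating at −2 and 2 and an asterisk at each call (adjusted p under 0.05). In the column for H1650 osimertinib against T0, 25 genes were called higher and 1, FADS1, was called lower.

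In all 4 comparisons with T0, 8 genes were called higher: TM7SF2, MSMO1, FADS2, ACSS2, INSIG1, SREBF1, SREBF2 and MYLIP (8.47% of all tested genes were). FADS1 was called lower in all 4 (9.16% of all tested genes were). MVK, SQLE, FASN, ELOVL6 and INSIG2 were called in opposite directions in different comparisons (7.60% of all tested genes were), and SCAP was called in none (23.0% of all tested genes were). The 2 drugs share the T0 libraries of their line, so their agreement within a line is not independent.

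Among the regulators, SREBF2 rose in both lines, with the larger increase in PC9. SREBF2 measured 141 and 131 CPM at T0 in PC9, 449.7 and 448 after erlotinib, and 380.2 and 375 after osimertinib. The H1650 libraries held 154 and 148 at T0, 187 and 179 after erlotinib, and 206 and 199 after osimertinib. No treated library overlapped the T0 libraries of its line. The log2 fold changes in PC9 were 1.72 ± 0.0705 (SE) with erlotinib (adjusted p = 4.57e-18) and 1.47 ± 0.0703 with osimertinib (adjusted p = 1.26e-16). Those in H1650 were smaller, 0.28 ± 0.0694 with erlotinib (adjusted p = 0.00216) and 0.42 ± 0.0693 with osimertinib (adjusted p = 1.88e-05).

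SREBF1 rose with both drugs and was highest after osimertinib in each line. In PC9 it measured 145 and 135 CPM at T0, 183 and 158 after erlotinib, and 240.0 and 214 after osimertinib. In H1650 it measured 143 and 125 at T0, 203 and 173 after erlotinib, and 270.1 and 238 after osimertinib. The log2 fold changes were 0.28, 0.70, 0.49 and 0.93, with adjusted p between 5.19e-09 and 0.00994. The PC9 erlotinib call did not hold without T0 replicate 2 (0.22) or without erlotinib replicate 1 (0.17).

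INSIG1, itself a known SREBP target, moved with SREBF1 in direction. It measured 28.2 and 23.7 CPM at T0 in PC9, 41 and 43.3 after erlotinib, and 48.9 and 50.1 after osimertinib. In H1650 the values were 29.9 and 29.3, then 38.2 and 36.9, then 62.6 and 61.4. The osimertinib libraries were the highest in both lines, with log2 fold changes from T0 of 0.93 ± 0.0931 in PC9 and 1.07 ± 0.0898 in H1650, beside 0.70 and 0.34 after erlotinib. INSIG2 stayed within 34.3 to 41.5 CPM in PC9 and 18.1 to 24.9 in H1650. It was called lower after erlotinib in PC9 (−0.23) and higher after osimertinib in H1650 (0.27), and both calls were fragile. The PC9 call was lost without any 1 of the 4 libraries compared (−0.26 to −0.20), and the H1650 call without T0 replicate 1 (0.14) or either osimertinib library (0.30 and 0.25). SCAP lay between 85 and 109 CPM in all 12 libraries, with log2 fold changes between −0.17 and 0.11.

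STARD4, a sterol carrier protein, was scarce in PC9 and abundant by comparison in H1650. It measured 1.92 and 2.67 CPM at T0 in PC9, 5.6 and 4.84 after erlotinib, and 6.43 and 7.18 after osimertinib. Its H1650 values were 22.1 and 25 at T0, 20.6 and 25 after erlotinib, and 40.3 and 40.2 after osimertinib. It rose in PC9 with erlotinib (log2 fold change 1.18 ± 0.197) and osimertinib (1.56 ± 0.194), and in H1650 with osimertinib (0.77 ± 0.119), while H1650 erlotinib gave −0.05 ± 0.123 (adjusted p = 0.813). MYLIP, an E3 ubiquitin ligase, rose in all 4 comparisons. Its values in PC9 were 15.4 and 16.1 CPM at T0, 26 and 29 after erlotinib, and 43.9 and 49 after osimertinib, and its log2 fold changes were 0.80, 1.56, 0.82 and 0.92.

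Of the 7 mevalonate enzymes, which lead from acetyl-CoA to farnesyl diphosphate, HMGCS1 and MVD were the ones that rose in PC9. HMGCS1 condenses acetoacetyl-CoA with acetyl-CoA, and it measured 77.2 and 79.2 CPM at T0, 121 and 129 after erlotinib, and 113 and 123 after osimertinib in PC9. In H1650 it measured 108 and 110.4 at T0, 95.5 and 105 after erlotinib, and 153 and 164 after osimertinib. The log2 fold changes were 0.68 ± 0.0773, 0.59 ± 0.0778, −0.13 ± 0.0766 (adjusted p = 0.208) and 0.53 ± 0.0757. MVD, mevalonate diphosphate decarboxylase, measured 44.3 and 42.2 CPM at T0 in PC9, 77.6 and 63.8 after erlotinib, and 62.1 and 55.7 after osimertinib. In H1650 the MVD values were 33.4 and 31.5, then 29.7 and 28.2, then 54 and 50.1. Both enzymes were therefore above T0 in every treated library except those of H1650 with erlotinib, which lay below it.

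The other 5 mevalonate enzymes did not share that pattern. PMVK, phosphomevalonate kinase, fell in PC9 by 0.52 and 0.53 on the log2 scale, the osimertinib call not holding without osimertinib replicate 1 (−0.33), and gave 0.12 and 0.09 in H1650. ACAT2, which joins acetyl-CoA units, fell after osimertinib in PC9 (−0.37, not called without T0 replicate 2 at −0.30) and after erlotinib in H1650 (−0.49 ± 0.0914). MVK, mevalonate kinase, was called lower after osimertinib in PC9 (−0.28 ± 0.12, adjusted p = 0.0462) and higher after osimertinib in H1650 (0.46 ± 0.107, adjusted p = 0.00103). The PC9 call for MVK did not hold without T0 replicate 1 (−0.14) or without either osimertinib library (−0.25 and −0.30). IDI1 and FDPS, which make the isoprenoid units and join them, passed the threshold in 1 of the 4 comparisons, osimertinib in H1650, at 0.44 ± 0.0821 and 0.30 ± 0.0841. The FDPS call was lost without T0 replicate 1 (0.27) or osimertinib replicate 2 (0.22).

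In the stage from squalene to sterol, 11 enzymes, the largest change in PC9 was that of TM7SF2, a sterol C14 reductase. TM7SF2 measured 6.35 and 5.48 CPM at T0 in PC9, 48.3 and 45.8 after erlotinib, and 53.1 and 65.4 after osimertinib. H1650 libraries gave 6.58 and 6.29 at T0, 10.6 and 9.22 after erlotinib, and 12.3 and 9.8 after osimertinib. The lines thus started at a like level and separated with treatment: it was 7.95-fold and 10-fold higher in PC9 (log2 fold changes 2.99 ± 0.137 and 3.32 ± 0.137) and 1.54-fold and 1.71-fold higher in H1650 (0.62 ± 0.15 and 0.78 ± 0.147). MSMO1, the sterol C4 methyl oxidase, measured 43 and 41.4 CPM at T0 in PC9, 109.8 and 116 after erlotinib, and 77.2 and 84.8 after osimertinib. In H1650 MSMO1 measured 52.1 and 56.1, then 66.3 and 72.5, then 114 and 113. The higher MSMO1 level was thus with erlotinib in PC9 and with osimertinib in H1650, with log2 fold changes of 1.42, 0.94, 0.36 and 1.07.

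DHCR7, which acts at the end of cholesterol synthesis, had the same order. It measured 134 and 122 CPM at T0 in PC9, 217 and 209.8 after erlotinib, and 154 and 170.3 after osimertinib. In H1650 it measured 68.7 and 62.9 at T0, 76.4 and 74.1 after erlotinib, and 127 and 121 after osimertinib. Its log2 fold changes were 0.74 ± 0.0765, 0.34 ± 0.0769, 0.19 ± 0.0801 (adjusted p = 0.0596) and 0.92 ± 0.0789. LSS, which closes squalene epoxide to lanosterol, measured 45 and 43.3 CPM at T0 in PC9 and 79.1 to 95.3 in the 4 treated libraries. In H1650 LSS lay between 86.3 and 95.6 CPM at T0 and with erlotinib, and at 131 and 116 with osimertinib. FDFT1, squalene synthase, rose in PC9 by 0.84 and 0.43 on the log2 scale and in H1650 after osimertinib by 0.50, with 0.02 after erlotinib.

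SQLE, squalene epoxidase and a control point of the pathway, was called in opposite directions in H1650. It measured 121 and 131 CPM at T0, 88.9 and 93.7 after erlotinib, and 152 and 147 after osimertinib. The erlotinib libraries lay below T0 and the osimertinib libraries above it, with log2 fold changes of −0.47 ± 0.079 (adjusted p = 2.78e-05) and 0.25 ± 0.0777 (adjusted p = 0.0141). The rise was not called without T0 replicate 1 (0.19) or osimertinib replicate 1 (0.22). In PC9 SQLE gave 0.27 with erlotinib, a call lost without T0 replicate 1 (0.19) or erlotinib replicate 1 (0.23), and −0.07 with osimertinib (adjusted p = 0.461).

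SC5D, lathosterol desaturase, rose in PC9 (0.74 and 0.67) and gave −0.16 and 0.16 in H1650. EBP, the sterol isomerase, fell in PC9 (−0.64 and −0.84) and after erlotinib in H1650 (−0.64), and gave −0.14 after osimertinib in H1650. NSDHL and HSD17B7, which act with MSMO1 in C4 demethylation, were called only after osimertinib in H1650, at 0.48 ± 0.102 and 0.55 ± 0.148. The HSD17B7 call was lost without osimertinib replicate 2 (0.43). CYP51A1, lanosterol demethylase, lay between 2.35 and 7.18 CPM, and fell after osimertinib in PC9 (−0.95 ± 0.219) and after erlotinib in H1650 (−0.92 ± 0.2).

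Some of these rows share sequence with others. In the GENCODE 29 annotation, 2844 of the 3584 exonic bases of CYP51A1 overlap another gene on the same strand and 138 one on the opposite strand. Of the 4299 exonic bases of ACAT2, 52.27% overlap TCP1, SOD2 or SOD2-OT1 on the opposite strand. The authors counted with other gene models, since the count table gives lengths of 3529 bases for CYP51A1 and 2639 for ACAT2. Strandedness is not given in the sources used here. The named pseudogenes of HSD17B7 reached 34.1% of its counts in 1 library. The values of CYP51A1, ACAT2 and HSD17B7 are therefore uncertain, by an amount that these overlaps do not measure.

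The fatty acid enzymes split in PC9 and mostly rose with osimertinib in H1650. FASN, fatty acid synthase, measured 693 and 639.8 CPM at T0 in PC9, 476 and 422 after erlotinib, and 582 and 499 after osimertinib. Levels in H1650 were 482 and 430.1 at T0, 521 and 479 after erlotinib, and 867 and 797 after osimertinib. Every treated PC9 library was below T0 and both H1650 osimertinib libraries were above it. The log2 fold changes were −0.57 ± 0.0827 (adjusted p = 8.64e-07), −0.30 ± 0.0826 (adjusted p = 0.00237, not called without osimertinib replicate 2 at −0.20), 0.13 ± 0.0827 (adjusted p = 0.223) and 0.87 ± 0.0829 (adjusted p = 2.79e-09).

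ELOVL6, which elongates C16 chains, moved in opposite directions in the lines under both drugs. It measured 33 and 38.7 CPM at T0 in PC9, 16.3 and 19.1 after erlotinib, and 22.3 and 22.6 after osimertinib. In H1650 it measured 36.6 and 37.1 at T0, 51.5 and 53.6 after erlotinib, and 64.2 and 65.8 after osimertinib. From nearly equal T0 levels, it was 2.02-fold and 1.6-fold lower in PC9 and 1.43-fold and 1.76-fold higher in H1650 (adjusted p between 8.73e-10 and 6.86e-05).

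SCD, stearoyl-CoA desaturase, was the most abundant of the 33 genes per length in H1650. It measured 113 and 105 CPM at T0 in PC9, 235 and 257 after erlotinib, and 210.0 and 214 after osimertinib. Among H1650 libraries it measured 733 and 749.7 at T0, 771 and 812 after erlotinib, and 1530.3 and 1508 after osimertinib. It rose by a like amount in 3 comparisons, with log2 fold changes of 1.18 ± 0.0717, 0.96 ± 0.0718 and 1.03 ± 0.0687, and gave 0.09 ± 0.0682 (adjusted p = 0.308) with erlotinib in H1650.

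ACSS2, which makes acetyl-CoA from acetate, rose in every comparison with T0. It measured 21 and 20.5 CPM at T0 in PC9, 42.6 and 39.1 after erlotinib, and 32.9 and 32.3 after osimertinib. In H1650 it measured 61.7 and 58.1 at T0, 124 and 117 after erlotinib, and 107 and 112 after osimertinib. Between the drugs in H1650 the log2 difference was −0.14 ± 0.0761 (adjusted p = 0.323), with both osimertinib libraries below both erlotinib libraries. ACLY, the other source of acetyl-CoA, fell in PC9 (−0.36 and −0.54) and after erlotinib in H1650 (−0.37), and gave −0.09 ± 0.068 after osimertinib in H1650. ACACA, acetyl-CoA carboxylase, rose in PC9 (0.62 and 0.53) and after osimertinib in H1650 (0.26, not called without T0 replicate 2 at 0.23 or osimertinib replicate 1 at 0.21).

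The neighbouring desaturase genes FADS1 and FADS2 went opposite ways. FADS1 measured 131 and 138 CPM at T0 in PC9 and 81.3 to 94.4 in the treated libraries, and 84.2 and 93.4 at T0 in H1650 and 63.7 to 77.7 in the treated ones. FADS2 measured 72.7 and 65.1 CPM at T0 in PC9, 103 and 97.2 after erlotinib, and 136 and 139 after osimertinib. In H1650 FADS2 measured 57.5 and 57.2 at T0, 68.8 and 64.8 after erlotinib, and 108 and 112 after osimertinib. FADS1 fell by 0.67, 0.52, 0.36 and 0.21 on the log2 scale and FADS2 rose by 0.54, 1.00, 0.22 and 0.94. In H1650 the FADS1 calls were lost without erlotinib replicate 1 (−0.24) and, for osimertinib, without T0 replicate 2 (−0.14) or either osimertinib library (−0.19 and −0.23), and the FADS2 erlotinib call without either T0 library (0.22 and 0.21) or erlotinib replicate 1 (0.18).

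**Figure D2:**
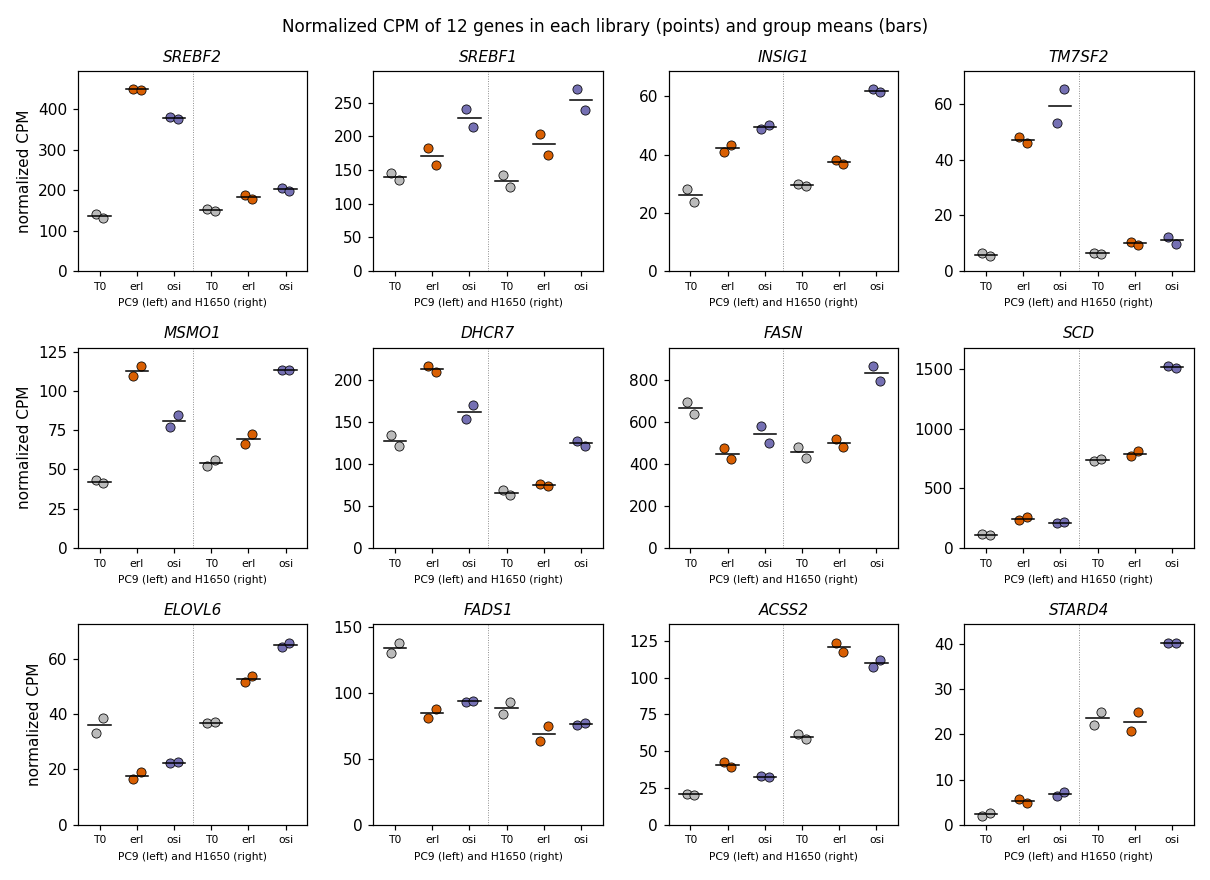
Normalized CPM of 12 genes (panels) in the 6 groups along the horizontal axis, with 1 point per library and a bar at the group mean. ELOVL6 lies between 16.3 and 22.6 CPM in treated PC9 cells and between 51.5 and 65.8 CPM in treated H1650 cells, from T0 levels of 33 to 38.7 CPM.

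Set against each other as lists, sterol enzymes and fatty acid enzymes had close medians in PC9 and were apart in H1650. The median log2 fold change of the 18 sterol enzymes was 0.19 with erlotinib and 0.08 with osimertinib in PC9, beside 0.09 and 0.11 for the 8 fatty acid enzymes. In H1650 the sterol median was −0.10 with erlotinib and 0.45 with osimertinib, beside 0.11 and 0.84 for fatty acid enzymes. The sterol minus fatty acid difference of medians was 0.0955 (SD 0.0145 over the 2 treated libraries, each against the mean of T0), −0.0277 (SD 0.0866), −0.216 (SD 0.0161) and −0.390 (SD 0.00752) in that order. The order in PC9 rests on the summary used, since with means in place of medians the differences were 0.319 and 0.112 and without TM7SF2 the erlotinib difference was 0.0167. With all libraries kept, the H1650 differences were negative in every alternative, between −0.287 and −0.216 for erlotinib and between −0.400 and −0.160 for osimertinib. These are descriptions of the lists, with no test.

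By counts, 9 sterol enzymes were called higher and 2 lower with erlotinib in PC9, 8 and 5 with osimertinib, 2 and 4 with erlotinib in H1650, and 13 and 0 with osimertinib in H1650. Over all tested genes 61.8%, 61.4%, 36.5% and 35.7% were called in these comparisons, so the sterol count with erlotinib was near the background in both lines, 11 of 18 in PC9 and 6 of 18 in H1650. The same counts for fatty acid enzymes were 4 and 4, 4 and 4, 3 and 2, and 6 and 1. The regulators and carriers gave 5 and 1, 5 and 0, 4 and 0, and 6 and 0. The mean log2 CPM over the sterol enzymes was 5.04 and 5.02 at T0 in PC9, 5.45 and 5.43 with erlotinib, and 5.21 and 5.35 with osimertinib. In H1650 it was 5.19 and 5.16 at T0, 5.04 and 5.07 with erlotinib, and 5.58 and 5.57 with osimertinib. For the fatty acid enzymes, the mean was 6.67 and 6.69, 6.75 and 6.79, and 6.81 and 6.82 in PC9, and 7.12 and 7.10, 7.24 and 7.30, and 7.67 and 7.66 in H1650. With erlotinib in H1650 the sterol mean was thus below T0 and the fatty acid mean above it.

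**Figure D3:**
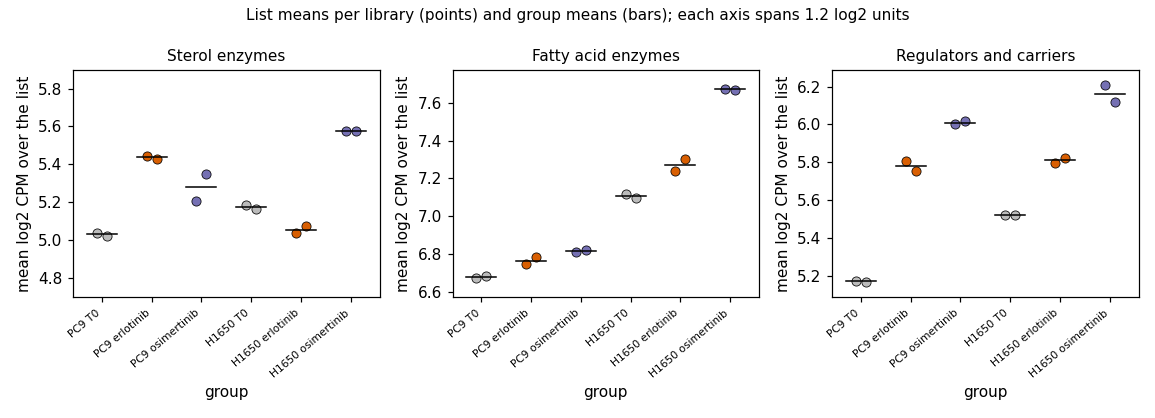
Mean log2 CPM over each of 3 lists (panels) in the 6 groups along the horizontal axis, with 1 point per library and a bar at the group mean. Each vertical axis spans the same number of log2 units, and the H1650 osimertinib libraries are the highest in all 3 panels.

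The drugs were then compared with each other at 36 h within each line, which removes the difference in time but not the difference in dose. In H1650, 22 of the 33 genes were called higher with osimertinib than with erlotinib and 0 lower, where 8.75% of all tested genes were called (5.02% higher and 3.73% lower). DESeq2 gave the same 22 and 0, and at an unadjusted p under 0.05 the count of lower genes was also 0. CYP51A1, PMVK, FDPS, TM7SF2, ACACA, FADS1, ACSS2, INSIG2, SREBF2, SCAP and MYLIP were the genes not called. The 22 were 14 sterol enzymes, 5 fatty acid enzymes and 3 regulators or carriers. SCD was 1.92-fold higher (log2 difference 0.94 ± 0.0686, adjusted p = 1.18e-10), MVD 1.8-fold (0.85 ± 0.0981, adjusted p = 5.58e-07), STARD4 1.76-fold (0.82 ± 0.121) and FASN 1.66-fold (0.73 ± 0.0828). The SREBF1 difference was 0.44 ± 0.0907, and SREBF2 gave 0.14 ± 0.0691 (adjusted p = 0.224). With 1 library left out, fewer of all tested genes were called. Of the 22, ACLY, EBP, ELOVL6, HSD17B7, SC5D and SREBF1 lost their call in at least 1 of these fits. ELOVL6 lost it without any 1 of the 4 libraries (0.28 to 0.34).

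In PC9 the comparison went both ways. There 14 genes were called, 6 higher and 8 lower with osimertinib, against 16.6% of all tested genes (10.1% higher and 6.41% lower). With upper quartile scaling the split was 5 higher and 11 lower, and with no expression filter 4 and 10. MYLIP (log2 difference 0.75 ± 0.105), FADS2 (0.46 ± 0.0753), SREBF1 (0.42 ± 0.0909), ELOVL6 (0.34), TM7SF2 (0.33) and FASN (0.27) were higher with osimertinib. MSMO1 (−0.48 ± 0.0783), FDFT1 (−0.41 ± 0.0743), DHCR7 (−0.40 ± 0.0759), SQLE (−0.34), ACSS2 (−0.32), ACAT2 (−0.30), SREBF2 (−0.25) and SCD (−0.22) were lower. Between 8 and 11 genes were called when 1 library was left out, 9 without erlotinib replicate 1, 9 without osimertinib replicate 1 and 8 without osimertinib replicate 2. TM7SF2 gave 0.18 without osimertinib replicate 2, and FASN 0.15 without osimertinib replicate 1. MYLIP, FADS2, SREBF1, MSMO1, FDFT1 and DHCR7 were the 6 called in each of these fits.

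Whether the difference between the drugs itself depended on the line was tested as an added contrast, the H1650 difference minus the PC9 difference. In this contrast 18 genes were called, 17 positive and 1 negative, against 5.21% of all tested genes (1.81% positive and 3.40% negative). The largest positive values were those of MSMO1 and CYP51A1, both 1.19, SCD at 1.16 ± 0.098, DHCR7 at 1.12 ± 0.109 and MVD at 1.11 ± 0.135. CYP51A1, at 2.35 to 7.18 CPM over the libraries, is among the rows described above as uncertain for shared sequence. The negative value was that of MYLIP at −0.66. Sterol enzymes made up 12 of the 18. This contrast was chosen after the drug comparisons had been seen, and 12 of the 18 calls held whichever library was left out. CYP51A1 was not called without PC9 osimertinib replicate 2 (1.09) or H1650 erlotinib replicate 1 (1.13), and MYLIP, the negative call, was not called without PC9 osimertinib replicate 2 (−0.57) or H1650 osimertinib replicate 2 (−0.53). EBP was lost without PC9 osimertinib replicate 1 (0.49), and FASN, INSIG1 and SREBF2 lost their calls in 4, 4 and 2 of the 8 fits.

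**Figure D4:**
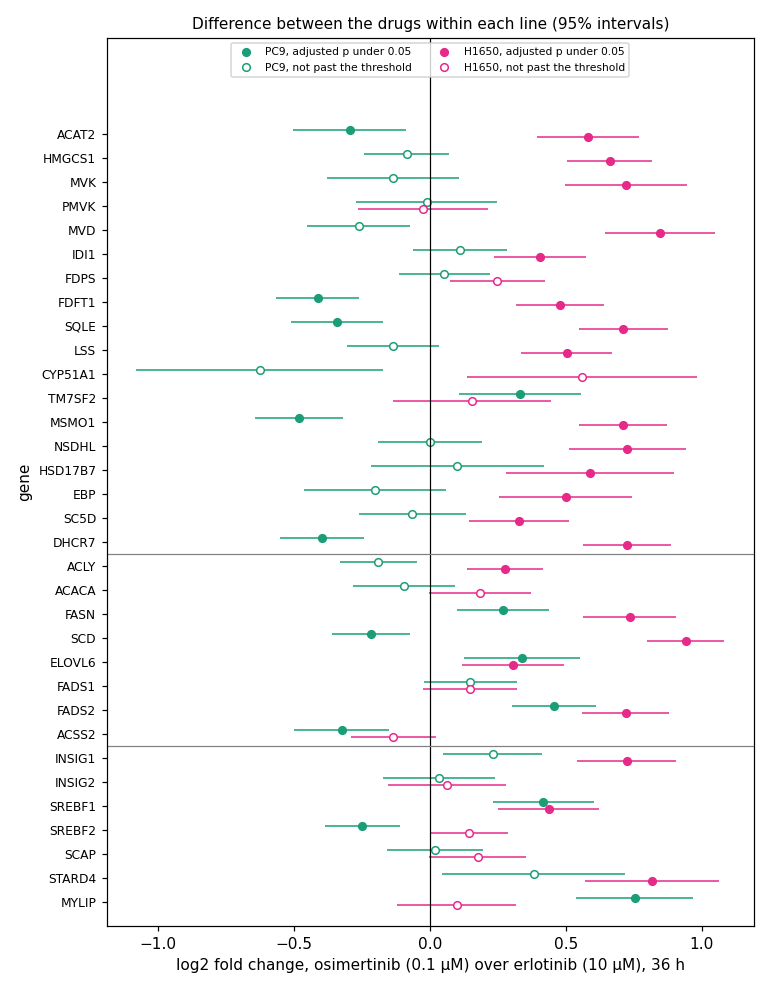
Log2 fold change of osimertinib over erlotinib at 36 h (horizontal axis, points with 95% intervals) for the 33 genes (vertical axis) in PC9 and H1650, with filled points for adjusted p under 0.05. The 22 filled H1650 points are all above 0, while 6 filled PC9 points are above 0 and 8 below.

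The response of each gene was also compared between the lines, taking the H1650 change less the PC9 change. For erlotinib, 21 genes differed, 5 with the higher value in H1650 and 16 with the higher value in PC9, against 40.8% of all tested genes (21.1% and 19.8%). For osimertinib, 20 differed, 14 with the higher value in H1650 and 6 in PC9, against 41.9% (21.5% and 20.5%). TM7SF2, SREBF2, STARD4, LSS and SC5D responded more in PC9 under both drugs, and FASN, ELOVL6, PMVK, INSIG2 and FADS1 had the higher value in H1650 under both. TM7SF2 had the largest difference, −2.37 ± 0.206 with erlotinib and −2.54 ± 0.204 with osimertinib, and ELOVL6 the largest in the other direction, 1.53 ± 0.137 and 1.5 ± 0.136. ACAT2, SQLE and DHCR7 changed sides: DHCR7 responded more in PC9 to erlotinib (−0.55 ± 0.111, adjusted p = 0.0002) and more in H1650 to osimertinib (0.58 ± 0.11, adjusted p = 8.95e-05). The calls of ACAT2, FADS1 and INSIG2 under both drugs, of FADS2 and INSIG1 under erlotinib and of PMVK, SQLE and STARD4 under osimertinib were lost without at least 1 library.

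Before treatment the lines already differed. At T0, 21 of the 33 genes were called between H1650 and PC9, 12 higher and 9 lower in H1650, against 69.6% of all tested genes (35.8% higher and 33.8% lower), which is close to the share of the 33. STARD4 was 10.3-fold higher in H1650 (log2 difference 3.36 ± 0.167) and SCD 6.81-fold higher (2.77 ± 0.0742). ACSS2, SC5D, ACAT2, SQLE and LSS were between 2.09-fold and 2.89-fold higher. NSDHL (−1.33 ± 0.099), INSIG2 (−1.02 ± 0.103), FDFT1 (−0.98 ± 0.0779) and DHCR7 (−0.96 ± 0.0791) were lower in H1650. The calls of EBP and FADS2 were lost without at least 1 library.

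Levels were compared between genes only per length, as RPKM, reads scaled by library size and by the gene lengths in the table. At T0 in PC9, FASN was highest at 71.5 ± 4.0 RPKM (SD, n = 2), followed by ACLY at 49.0 ± 0.23 and DHCR7 at 31.0 ± 2.1. At T0 in H1650, SCD was highest at 141 ± 2.2 RPKM, followed by ACLY at 50.2 ± 1.1 and FASN at 48.9 ± 3.9, which were within their spread of each other. With osimertinib in H1650, SCD reached 289.6 RPKM and FASN 89.2, and with erlotinib in PC9, SREBF2 was the highest at 59.4. CYP51A1 and STARD4 were the lowest in PC9 in every group, between 0.403 and 1.4 RPKM.

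Genes of the same pathways outside the 33 were counted in 4 lists, 63 of whose 66 genes were tested. Over all tested genes, 61.8% were called with erlotinib and 61.4% with osimertinib in PC9, and 36.5% and 35.7% in H1650. Of 13 other isoprenoid and sterol enzymes, 4 rose and 5 fell with either drug in PC9, 2 rose and 5 fell with erlotinib in H1650, and 3 rose and 3 fell with osimertinib. The share of this list called was 69.2% with either drug in PC9, and 53.8% and 46.2% in H1650. PDSS1, which makes the side chain of coenzyme Q, had the largest change of this list in all 4 comparisons. It measured 19 and 20 CPM at T0 in PC9, 2.51 and 1.8 with erlotinib, and 1.57 and 1.79 with osimertinib, and 13 and 10.7, 5.83 and 5.77, and 6.21 and 5.21 in H1650. PDSS1 was 9.1-fold and 11.6-fold lower in PC9 and 2.04-fold and 2.07-fold lower in H1650. Of 8 tested SREBP processing genes, 3 rose and 4 fell with erlotinib and 3 and 3 with osimertinib in PC9, and 1 rose and 2 fell, then 1 and 3, in H1650. Among the largest changes were those of MBTPS1, the site-1 protease that cuts SREBP (log2 fold change 1.07 ± 0.0692 with erlotinib in PC9), ERLIN1 (−0.42 ± 0.0732 with erlotinib in H1650) and MBTPS2, the second protease (−0.53 ± 0.0942 with osimertinib in H1650).

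Of 18 genes of sterol uptake, storage and transport, 7 rose and 6 fell with erlotinib and 9 and 6 with osimertinib in PC9, and 5 and 5, then 10 and 4, in H1650. GRAMD1C, a sterol transfer protein, led this list in all 4. It measured 2.72 and 4.49 CPM at T0 in PC9, 31.4 and 30.9 with erlotinib, and 40.5 and 41.8 with osimertinib, and 1.12 and 0.887, 5.26 and 4.42, and 6.73 and 6.15 in H1650. Its log2 fold changes were 3.10 ± 0.161, 3.51 ± 0.16, 2.27 ± 0.242 and 2.69 ± 0.229. Of 24 tested genes of other fatty acid and glycerolipid synthesis, 7 rose and 10 fell with erlotinib and 9 and 9 with osimertinib in PC9, and 6 and 9, then 8 and 8, in H1650. In this list 70.8% and 75% were called in PC9, and 62.5% and 66.7% in H1650. FADS3 had the largest change in PC9 (4.34-fold and 3.2-fold higher) and ACSL5, an acyl-CoA synthetase, in H1650 (3.59-fold and 3.33-fold higher).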

How the data were processed

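RNA-seq was analysed in 12 libraries of PC9 and H1650 cells, 6 groups of 2. Per the file headers and the study's methods, the authors processed reads with the DolphinNext pipeline, assigned them to genes with featureCounts and deposited whole-number counts per gene without normalization. The submitters' processing notes name GRCh38 and DESeq2; the aligner, annotation and strandedness are not given in the sources used here.

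The analysis used edgeR 4.0.16 under R 4.3.3: expression filter by group (19108 genes kept, 41483 left out), TMM scaling, and 1 quasi-likelihood fit of the 6 group means over all 12 libraries (6 residual and 20.7 prior degrees of freedom, common biological coefficient of variation 0.0656). Adjusted p-values are Benjamini-Hochberg over all tested genes. SE is the log2 fold change divided by the square root of F, and mean log2 CPM used a prior count of 2. Totals were 17961765 to 26346187 counts. The limit from 3 reads covers counting error only, while SEs and intervals include the spread between libraries. Replicates differed beyond sampling noise in every group.

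The 33 genes and the lists were chosen with earlier results of these data known. All 33 are named, and of each other list the called gene with the largest change in each drug comparison. Some genes of the other lists are counted but not reported here by name. Data for all 12 libraries were simulated from the mean PC9 T0 levels, with 200 genes changed in the PC9 erlotinib libraries. Of 200 genes given a log2 change of 1, 186 were called with 8 false calls among 16996 genes. Of 200 given 0.5, 126 were called with 12 false calls among 16999. The share changed was far below the 61.8% called in PC9 with erlotinib, so these rates cannot be carried over to the real libraries. Alternatives were DESeq2 1.42.0, other scalings and filters, a fit per line, a replicate block and leaving out each library. Positions come from GENCODE 29 and promoters from RefSeq GRCh38.p14.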

Additional observations from a re-analysis of the deposited data

Results flagged for a closer look

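Responses were tested for a difference between the lines, as the log2 change in H1650 minus that in PC9, and the results past an adjusted p of 0.05 in edgeR's quasi-likelihood test are listed here with no explanation.

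For erlotinib, 21 genes differed (SE 0.0982 to 0.234, adjusted p 1.2e-12 to 0.0346). Among sterol enzymes the differences were −0.41 for ACAT2, −0.80 for HMGCS1, 0.63 for PMVK, −0.87 for MVD, −0.82 for FDFT1, −0.73 for SQLE, −1.15 for LSS, −2.37 for TM7SF2, −1.06 for MSMO1, −0.90 for SC5D and −0.55 for DHCR7. Among fatty acid enzymes they were −0.54 for ACACA, 0.70 for FASN, −1.08 for SCD, 1.53 for ELOVL6, 0.31 for FADS1 and −0.32 for FADS2. Among regulators and carriers they were −0.36 for INSIG1, 0.44 for INSIG2, −1.45 for SREBF2 and −1.23 for STARD4.

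For osimertinib, 20 genes differed (SE 0.0968 to 0.231, adjusted p 3.58e-11 to 0.0353). Among sterol enzymes the differences were 0.46 for ACAT2, 0.74 for MVK, 0.62 for PMVK, 0.44 for IDI1, 0.32 for SQLE, −0.52 for LSS, −2.54 for TM7SF2, 0.58 for NSDHL, 0.78 for HSD17B7, 0.70 for EBP, −0.51 for SC5D and 0.58 for DHCR7. Among fatty acid enzymes they were 0.45 for ACLY, 1.17 for FASN, 1.5 for ELOVL6 and 0.31 for FADS1. Among regulators and carriers they were 0.47 for INSIG2, −1.05 for SREBF2, −0.79 for STARD4 and −0.64 for MYLIP.

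The difference between osimertinib and erlotinib itself differed between the lines for 18 genes (SE 0.0968 to 0.302, adjusted p 5.96e-09 to 0.0168). Among sterol enzymes the values were 0.88 for ACAT2, 0.75 for HMGCS1, 0.86 for MVK, 1.11 for MVD, 0.89 for FDFT1, 1.05 for SQLE, 0.64 for LSS, 1.19 for CYP51A1, 1.19 for MSMO1, 0.73 for NSDHL, 0.70 for EBP and 1.12 for DHCR7. Among fatty acid enzymes they were 0.47 for ACLY, 0.47 for FASN and 1.16 for SCD. Among regulators and carriers they were 0.49 for INSIG1, 0.39 for SREBF2 and −0.66 for MYLIP. The 3 contrasts share libraries, so their values are not independent of each other.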

How the results depend on the processing

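Counts of called genes stayed within 1.5 times the reported ones under DESeq2, other scalings and filters, a fit per line and the replicate block, except osimertinib against erlotinib in PC9, 14 at the 0.05 threshold and 8 at 0.01, and 8 to 11 when 1 library was left out. Of 1376 alternative values of called genes, 1338 kept their call, 38 lost it and 0 reversed; with 1 library left out, 947 of 1068 kept it and 121 lost it. A group left with 1 library is assumed to vary like the others.

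The sterol minus fatty acid difference of medians moved with the summary. For PC9 erlotinib (0.0955) it was 0.203 without ACLY and ACSS2, 0.319 as means, 0.0167 without TM7SF2 and 0.0988 to 0.143 with 1 library left out. For PC9 osimertinib (−0.0277) it was 0.112 as means and −0.0860 to 0.0365 with 1 library left out. For H1650 erlotinib (−0.216) it was −0.287 as means, −0.241 without TM7SF2 and −0.242 to −0.203 with 1 library left out. For H1650 osimertinib (−0.390) it was −0.160 as means, −0.400 without TM7SF2 and −0.392 to −0.365 with 1 library left out. The cause of these moves was not tested.

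Values that changed sign were all short of the threshold. ACAT2 with erlotinib in PC9 was 0.0153 under upper quartile scaling. IDI1 with osimertinib in PC9 was −0.0064 in DESeq2, −0.0053 under relative log scaling, −0.0791 with no filter and −0.0553 in a fit per line. FDFT1 with erlotinib in H1650 was −0.0013 in DESeq2 and −0.0014 with no filter. With 1 library left out, the H1650 erlotinib ranges were −0.0814 to 0.223 for ACACA, −0.0150 to 0.0540 for FDFT1, −0.0197 to 0.123 for FDPS, −0.0303 to 0.102 for IDI1, −0.146 to 0.0097 for SCAP and −0.199 to 0.0850 for STARD4. PMVK with osimertinib in H1650 ranged from −0.0226 to 0.212, and MVK with erlotinib in PC9 from −0.316 to 0.0157. With osimertinib in PC9 they were −0.0491 to 0.0568 for IDI1, −0.232 to 0.0175 for NSDHL and −0.159 to 0.0046 for SQLE. Between the drugs in H1650 they were −0.0297 to 0.171 for INSIG2, −0.0407 to 0.232 for MYLIP, −0.0708 to 0.0291 for PMVK and −0.0082 to 0.315 for TM7SF2.

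Over all tested genes together, deviations of same-numbered replicates had a correlation over 0.1 in 0 of 15 pairs of groups (−0.0671 to 0.0947). That value does not speak for single genes. FASN, SREBF1, SREBF2, SCAP and MVD were higher in replicate 1 than in replicate 2 in all 6 groups. HMGCS1 and ACAT2 were higher in replicate 2 in all 6. The cause was not tested, and the main fit took no account of the replicate number. With the number as a replicate block, the 33 genes gave 27, 28, 19 and 26 calls against T0 (PC9 erlotinib, PC9 osimertinib, H1650 erlotinib, H1650 osimertinib), 22 and 23 between the lines, 18 and 23 between the drugs in PC9 and H1650, 23 at T0 and 20 for the line dependence. Over all genes the block moved the H1650 drug comparison from 1672 to 2670 calls and the line dependence from 995 to 1722. With 2 libraries a group, changes near 0.5 on the log2 scale were missed in part in the simulated data. Few genes changed there, and how many such changes were missed in the real libraries was not tested.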
